A study of Mus musculus with 204 samples.

Results

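Galanin, vasoactive intestinal peptide (VIP) and neuropeptide Y (NPY) are neuropeptides, each cut from a precursor protein that 1 gene encodes. The 3 precursor transcripts Gal, Vip and Npy were followed as 3 of the 49492 gene rows of an RNA table with 1 column per picked cell. The mice carried VGLUT2-tdTomato, a red reporter named for the vesicular glutamate transporter that Slc17a6 encodes, and the tissue was distal colon. Its muscle, together with the myenteric plexus, was taken apart into cells, which stayed in culture overnight before red ones were drawn up singly by pipette. No treatment, age, animal or culture is named in the labels, and no value here tells whether redness marks present or earlier Slc17a6 expression.

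Plates 1, 2 and 3 held 66, 66 and 72 cells. Reads in genes ranged from 0.453 to 14.3 M (1 M is 1000000 reads) per cell, with medians of 3.45, 4.57 and 4.69 M. Cells are not replicates and each plate counts as 1 sample, so no test was made, and the exact 95% intervals cover counting error only; reads were not collapsed to molecules. Plate 1 has its own index series, while plates 2 and 3 share 1. The labelled cell type was checked with 13 pan-neuronal genes. At least 50% of them were detected in 54, 45 and 55 cells of the 3 plates (75.5% of all cells, 95% interval 69.0 to 81.2%). These are called neuronal here, and the remaining 50 cells did not bear out the label. Slc17a6 was detected in 89 of the neuronal cells.

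The myenteric plexus lies between the muscle layers of the gut and drives their contraction and relaxation. VIP is known as a relaxing transmitter that inhibitory motor neurons release with nitric oxide, the product of the enzyme encoded by Nos1, onto smooth muscle. Galanin is known from the same motor neurons in the mouse colon and acts on the receptors GALR1, GALR2 and GALR3, the first of which lowers cyclic AMP. NPY is known from some enteric neurons and, above all, from sympathetic axons that reach the gut from outside. Excitatory neurons of the plexus are known to use acetylcholine, which the enzyme encoded by Chat makes.

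Gal lies on the minus strand of chromosome 19, from 3409915 to 3414544, in the mm10 build. Vip lies on the plus strand of chromosome 10, from 5639218 to 5647617, and Npy on the plus strand of chromosome 6, from 49822710 to 49829507. No other annotated gene overlaps any of the 3, so a missing strand setting does not mix their reads with those of a neighbour. Since Gal and Vip were high together in 12 of the 30 neuronal cells with Nos1 and without Chat, the 150 bases before each start site are given from RefSeq on GRCm38.p6, the assembly that mm10 names. They span chr19:3414545-3414694 on the minus strand for Gal, chr10:5639068-5639217 on the plus strand for Vip and chr6:49822560-49822709 on the plus strand for Npy, and are written 5′ to 3′ with matches to TGACG and TATAAA in capitals.
Gal: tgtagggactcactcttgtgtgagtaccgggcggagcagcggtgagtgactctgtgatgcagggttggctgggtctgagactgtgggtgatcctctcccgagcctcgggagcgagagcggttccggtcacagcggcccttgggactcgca
Vip: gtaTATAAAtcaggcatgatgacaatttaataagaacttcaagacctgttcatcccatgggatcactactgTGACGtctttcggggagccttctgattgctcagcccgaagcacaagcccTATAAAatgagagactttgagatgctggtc
Npy: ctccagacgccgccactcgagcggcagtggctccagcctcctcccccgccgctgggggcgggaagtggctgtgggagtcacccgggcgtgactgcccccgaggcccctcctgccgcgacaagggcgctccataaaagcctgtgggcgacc

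On both strands of the 250 bases before each start site, 4 motifs were searched. They were TGACGT, the core of the cyclic AMP response element, the shorter TGACG inside it, the TATA box TATAAA and the E-box CACGTG. Vip held TGACGT, and with it TGACG, at position -79 from the start site, and TATAAA at positions -157, -147 and -30. Gal and Npy held none of the 4 in these windows. Among 32536 distinct windows of the same length, 6.50% held TGACGT, 17.9% TGACG, 12.3% TATAAA and 6.04% CACGTG. A match is a description of the letters and not a bound site.

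Reads of a strongly expressed gene can be assigned to the wrong well, and this sets how low levels are read. Gal reads were present in all 66 cells of plate 2 and all 72 of plate 3 but in 20 of 66 on plate 1, while Vip reads were present in every cell of the 3 plates but 2. Npy reads were present in 33 cells. The rate was estimated from genes with 95% or more of their plate reads in a single cell. The median further cell received 56.74, 85.03 and 34.09 reads per 1000000 reads of such a gene on plates 1, 2 and 3. These rates rest on 2, 11 and 1 genes, and 7.69%, 4.06% and 1.41% of the further cells' values for those genes lay over 10 times the rate. In what follows, a transcript is detected at 10 CPM, the reads of the gene per 1000000 reads of the cell. It is high where it is also at least 10 times the expected misassigned reads, and low where it is detected but not high.

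In the cells that were not neuronal, the median reads were of the order of the expectation on most plates. In the 21 other cells of plate 2 the median Gal count was 27 reads, against 57.1 expected, and in the 17 other cells of plate 3 it was 6 reads, against 10.2 expected. Vip had median counts of 8.5, 13 and 15 reads in the other cells of plates 1, 2 and 3, against 4.87, 17.5 and 20.1 expected. In the plot of ranked reads, the cells of plates 2 and 3 form a long floor along the expected line, below a steep set of high cells. The floor of Gal was missing on plate 1, where the expectation was under 1 read per cell. Low levels, held by 28 cells for Gal and 28 for Vip, are therefore given apart from high ones.

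**Figure D1:**
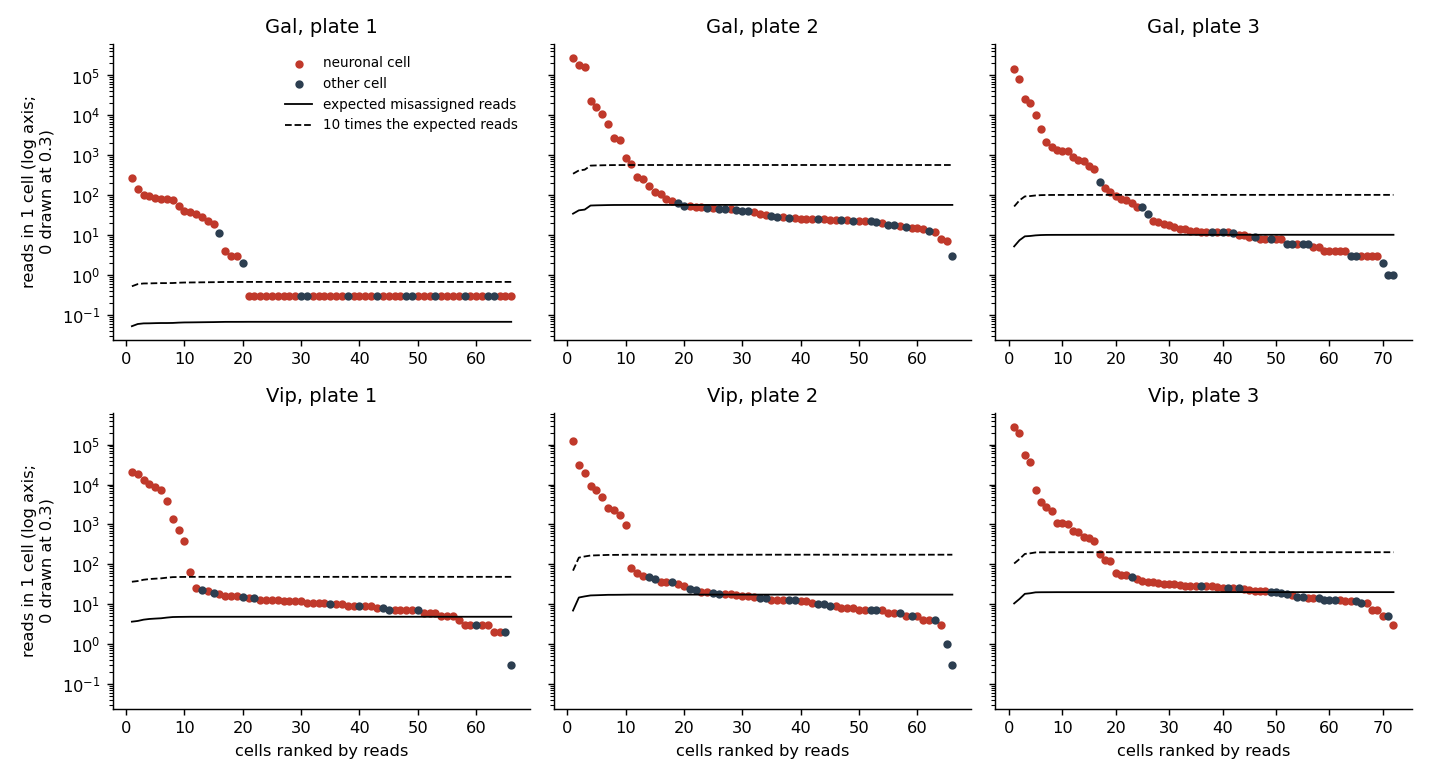
Reads of Gal (top) and Vip (bottom) in each cell on a log axis, with cells ranked by reads within plates 1, 2 and 3, neuronal cells in red and other cells in dark blue. The solid line is the reads expected from misassignment and the dashed line 10 times that; on plates 2 and 3 most cells lie along the solid line, while 11 and 19 cells of these plates were high for Gal.

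Cells on either side of the threshold were as follows. The lowest high Gal level was 79.2 CPM on plate 2, at 10.4 times the expected reads, and the highest level not called high was 179.6 CPM in a shallow cell, with all cells not high at or below 5.13 times. On plate 3 the lowest high Gal level was 20.6 CPM, at 11.7 times the expected reads, and the cells just outside reached 9.62 times. For Vip the lowest high levels were 63.3, 234.5 and 35.0 CPM on plates 1, 2 and 3, and the highest outside were 12.3, 181.001 and 70.9 CPM.

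Gal was high in 40 neuronal cells (26.0%, 95% interval 19.2 to 33.6%) and in 1 of 50 other cells (2.0%, 0.0506 to 10.6%). On plates 1, 2 and 3 the neuronal counts with high Gal were 11 of 54, 11 of 45 and 18 of 55, shares whose intervals overlapped. The levels differed more. High Gal ran from 12.1 to 47.2 CPM on plate 1, with a median of 21.2 CPM. It ran from 79.2 to 43580 CPM on plate 2, with a median of 2140 CPM, and from 20.6 to 21305 CPM among neuronal cells of plate 3, with a median of 159.2 CPM. The high cells of plate 1 thus overlapped with the lower high cells of plate 3 and lay below every high cell of plate 2. The lower ends of these ranges depend on the rule. In neuronal cells without high Gal, the median expected reads were 0.0672, 57.1 and 10.2 on plates 1, 2 and 3. Low Gal was held by 0, 18 and 4 neuronal cells of plates 1, 2 and 3. The shares and medians of high Gal thus do not rest on the same CPM on each plate. The single other cell with high Gal, cell 30 of plate 3, held 48.7 CPM. A marker list of another cell type, most often smooth muscle, was carried by 18 of the 40 neuronal Gal-high cells (45.0%) and 64 of the neuronal cells without high Gal (56.1%), and its part was not tested.

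A few cells held most Gal reads. Cell 48 of plate 2 had 43580 CPM, so that 4.36% of its reads were Gal and no other gene of that cell had more. Cells 20 and 64 of plate 2 followed with 25510 and 15156 CPM, and these 3 cells held 90.3% of the Gal reads of the plate. On plate 3, cell 43 with 21305 CPM also had Gal as its most abundant transcript, and the 3 highest cells held 84.3% of the plate's Gal reads. All of these cells had Nos1 and no Chat at the detection level.

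To ask in which transmitter class the precursors lay, cells were sorted by Nos1 and Chat detection. There were 31 cells with Nos1 only, 50 with both, 57 with Chat only and 66 with neither. Plates 1, 2 and 3 gave 3, 15 and 13 cells of the Nos1-only class. Median depths were 6.11, 4.25, 4.2045 and 2.94 M reads in the Nos1-only, both, Chat-only and neither classes. Gal was high in 21 of 31 Nos1-only cells (67.7%, 48.6 to 83.3%), in 9 of 50 cells with both (18.0%, 8.58 to 31.4%), in 6 of 57 Chat-only cells (10.5%, 3.96 to 21.5%) and in 5 of 66 cells with neither (7.58%, 2.51 to 16.8%). The interval of the Nos1-only class lay above those of the other 3 classes, which overlapped each other. On plate 2 the 11 high cells were all Nos1-only, out of 15, and the 18 Chat-only cells included 7 with low and 0 with high Gal. Plate 3 had high Gal in 10 of its 13 Nos1-only cells and 4 of its 16 Chat-only cells, and plate 1 in 0 of 3 and 2 of 23.

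**Figure D2:**
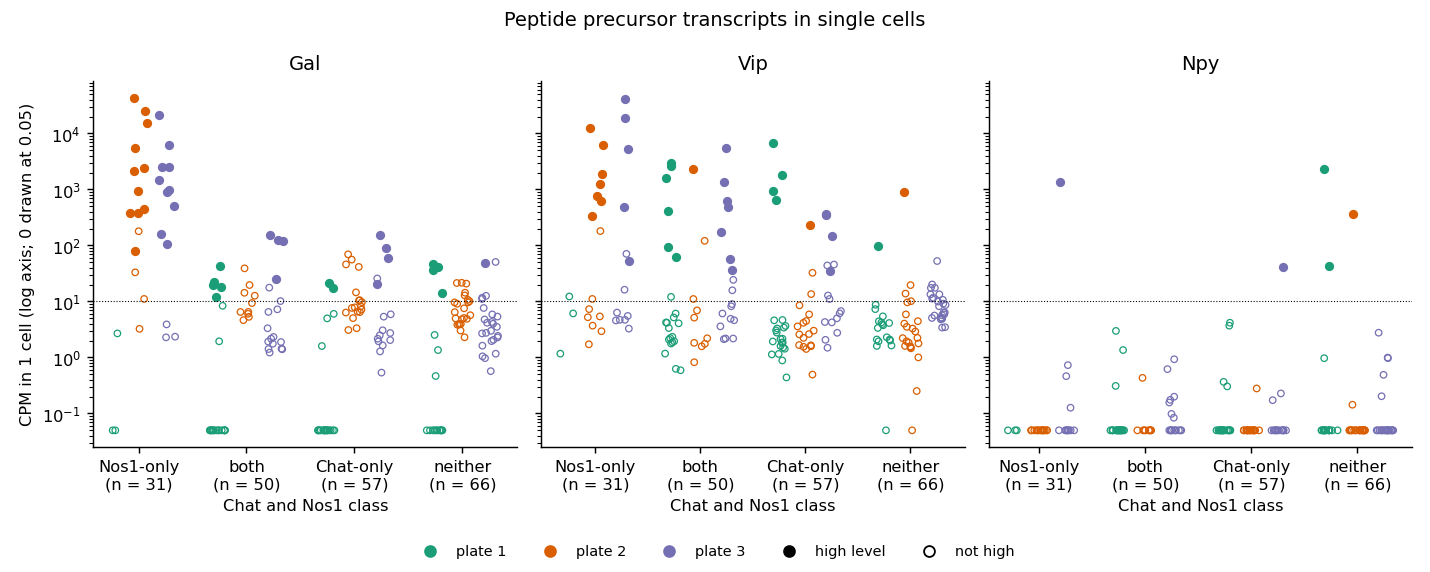
CPM of Gal, Vip and Npy in each cell on a log axis, by Chat and Nos1 class and plate, with filled points for high levels and open points for all others; the dotted line is the detection level of 10 CPM. Gal of 200 CPM or more occurs in 18 cells, all of them in the Nos1-only class, while high Vip is spread over the classes and high Npy is held by 5 cells.

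The classes differed most clearly in how much Gal a cell held. All 18 cells with 200 CPM or more were Nos1-only, 10 on plate 2 and 8 on plate 3, and no cell of another class reached that level. Outside the class the highest Gal levels were 47.2, 69.5 and 156.3 CPM on plates 1, 2 and 3. On plate 2, Nos1-only cells had a lowest level of 3.25, a median of 449 and a highest of 43580 CPM, and Chat-only cells 3.09, 8.01 and 69.5 CPM. On plate 3, Nos1-only cells had 2.29, 888 and 21305 CPM, and Chat-only cells 0.537, 2.90 and 156.3 CPM. The Chat-only medians lay within the range of misassigned reads. The class did not separate completely, because Nos1-only cells without high Gal overlapped with the Chat-only cells on both plates.

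The 9 neuronal Nos1-only cells without high Gal differed from the 21 with it in more than Gal. Nos1 ran from 36.2 to 2144 CPM with a median of 846 CPM in the Gal-high cells. It ran from 11.1 to 1501 CPM with a median of 66.7 CPM in the others. Nos1 was itself high in 21 of 21 Gal-high cells and in 7 of the 9 others. The rest of the 9 were classed on Nos1 levels that the rule for high levels could not tell from misassigned reads. With classes by high levels of Chat and Nos1, Gal was high in 21 of 28 Nos1-only cells. Kcnab1, which encodes an auxiliary subunit of voltage-gated potassium channels, was high in 21 of 21 Gal-high cells and in 2 of the 9 others. Slc17a6 was high in 0 of 21 (which at 3 cells leaves room for 14.3%) and in 3 of 9. The median depth was 6.89 M reads with high Gal and 2.05 M reads without, and a marker list of another cell type was carried by 4 of 21 and 7 of 9 cells. The part of depth and of other cells' RNA in this difference was not tested. With each cell thinned to 400000 reads, Gal was high in 20 of 30 Nos1-only cells (66.7%).

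Gal in cells with Chat was lower. It was high in 15 neuronal cells with Chat, 7 on plate 1 and 8 on plate 3, at 12.1 to 156.3 CPM with a median of 25.3 CPM. A list of another type was carried by 11 of these 15 cells and 45 of the 91 neuronal cells with Chat and no high Gal, and its part was not tested. These levels depend on the threshold: with detection from 50 CPM, Gal was high in 3 of 50 cells with both transcripts (6.0%) and not in 9. The level needed for a high call also differed by plate. On plate 2, 11 of 28 cells with Chat had low Gal, up to 69.5 CPM, and 0 had high Gal. Levels of that size were called high on plate 3, so the count and median mix unlike thresholds. With a high level set at 1% of the plate's highest CPM instead, 2 of 57 Chat-only cells (3.51%) had high Gal. Among cells that carried no marker list of another type, the share was 89.5% in the Nos1-only class and 3.13% in the Chat-only class.

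Vip was high in 37 neuronal cells (24.0%, 17.5 to 31.6%). Among the other cells it was high in 0 of 50, and that count, taken as at most 3 cells, leaves room for a share of 6.0%. On plates 1, 2 and 3 the neuronal counts were 11 of 54, 10 of 45 and 16 of 55. High Vip ran from 63.3 to 6697 CPM on plate 1 with a median of 935 CPM, from 234.5 to 12603 CPM on plate 2 with a median of 1097 CPM, and from 35.0 to 41105 CPM on plate 3 with a median of 426 CPM. The ranges of all 3 plates overlapped. Cell 41 of plate 3 held the most, with 4.11% of its reads, and Vip was the most abundant transcript there and in cell 65 of plate 2. A further 22 neuronal and 6 other cells had low Vip, so detection alone would give 38.3% of neuronal cells. Marker lists of other types were carried by 40.5% of the neuronal Vip-high cells and 57.3% of the neuronal cells without high Vip, and their part was not tested.

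By class, Vip was high in 12 of 31 Nos1-only cells (38.7%, 21.9 to 57.8%), 14 of 50 with both (28.0%, 16.2 to 42.5%), 9 of 57 Chat-only (15.8%, 7.48 to 27.9%) and 2 of 66 with neither (3.03%, 0.369 to 10.5%). The intervals of the first 3 classes overlapped. High Vip on plate 2 was held by 7 of the 15 Nos1-only cells and 1 of the 18 Chat-only cells. On plate 3 the counts were 5 of 13 and 4 of 16, although Vip was detected in 53.8% and 50.0% of these cells. On plate 1, which had only 3 Nos1-only cells and none of them high, 10 of the 11 Vip-high cells had Chat. Vip of 1000 CPM or more was held by 7 Nos1-only cells, 6 with both transcripts and 2 with Chat only, so abundant Vip was not limited to the Nos1-only class as abundant Gal was.

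Across all genes, the mean CPM of Nos1-only cells was set over that of Chat-only cells on plates 2 and 3 as a log2 ratio with 1 CPM added. Of 10876 genes with a mean of at least 10 CPM in either class on both plates, 0.818% were higher by 2 or more on both plates and 1.5% lower. Gal was higher by 8.43 and 6.83 on the log2 scale and ranked 2nd of all by its smaller ratio, after Nos1 itself, which the classes were made with. Vip was higher by 6.38 and 6.27 and ranked 4th. On plate 3 the mean of Vip was 5102 CPM in Nos1-only cells and 65.1 CPM in Chat-only cells, while its medians were 16.2 and 8.91 CPM, so few cells set that mean. On plate 2 the medians were 181.001 and 2.82 CPM. Leaving out the highest cell of each plate gave 7.67 and 5.70 for Gal, and 5.41 and 4.99 for Vip. The medians over all 10876 genes were -0.10 and -0.06.

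**Figure D3:**
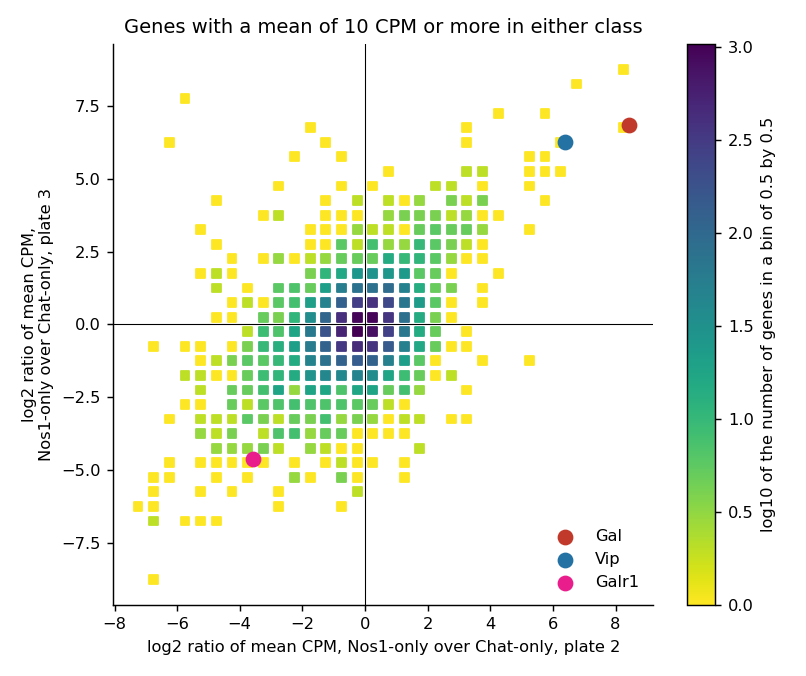
Log2 ratio of mean CPM, Nos1-only over Chat-only cells, on plate 2 (x) and plate 3 (y) for 10876 genes counted in bins of 0.5 by 0.5, with colour giving the log10 number of genes. Gal (8.43 and 6.83) and Vip (6.38 and 6.27) lie at the upper right edge, and Galr1 (-3.58 and -4.62) lies at the lower left.

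Neuronal cells over other cells gave Vip log2 ratios of 6.42, 7.18 and 7.18 on plates 1, 2 and 3. Of 10158 genes tested in this comparison, 9.58% were higher by 2 or more on all plates and 1.97% lower, and Vip ranked 34th. Gal had a mean under 10 CPM in both kinds of cell on plate 1 and was not among the genes tested.

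In the neuronal cells, high Gal and high Vip occurred together in 18 (11.7%, 7.08 to 17.8%). Gal without Vip occurred in 22, Vip without Gal in 19, and neither in 95. If the shares were multiplied, 6.24% would hold both. Within plates the shares with both were 3.70%, 15.6% and 16.4%, against products of 4.15%, 5.43% and 9.52%, so the excess was on plates 2 and 3. Among cells with no marker list of another type, 18.1% held both, and with a high level set at 1% of the plate's highest CPM, 7.14% did.

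The overlap followed the class. Of 30 neuronal Nos1-only cells, 12 held both, 9 held Gal without Vip, 9 held neither and 0 held Vip without Gal. All 12 Vip-high Nos1-only cells were thus high in Gal, 7 on plate 2 and 5 on plate 3. This nesting depends on the rule for a high level. Cell 33 of plate 2, also Nos1-only, held 181.001 CPM of Vip, at 4.70 times the expected reads, and 33.1 CPM of Gal. With a high level set at 3 times the expected reads, Vip was high in 15 of 31 Nos1-only cells and Gal still in 21. Cell 33 then had high Vip without high Gal. Of the 56 neuronal Chat-only cells, 2 held both, 4 Gal only and 7 Vip only. Of the 50 with both Chat and Nos1, 4 held both peptides, 5 Gal only and 10 Vip only. Among the 12 Nos1-only cells the balance varied widely. Per length of gene, Gal exceeded Vip in 9 and Vip exceeded Gal in 3, with a Gal to Vip ratio of RPKM from 0.168 to 43.8 and a median of 3.71. This split depends on the lengths used, 712 bases for Gal and 3402 for Vip. By CPM, Vip also exceeded Gal in cells 4, 45 and 56 of plate 2. In the 6 Chat-expressing cells with both, the ratio ran from 0.0684 to 1.18, with Vip higher in 5.

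**Figure D4:**
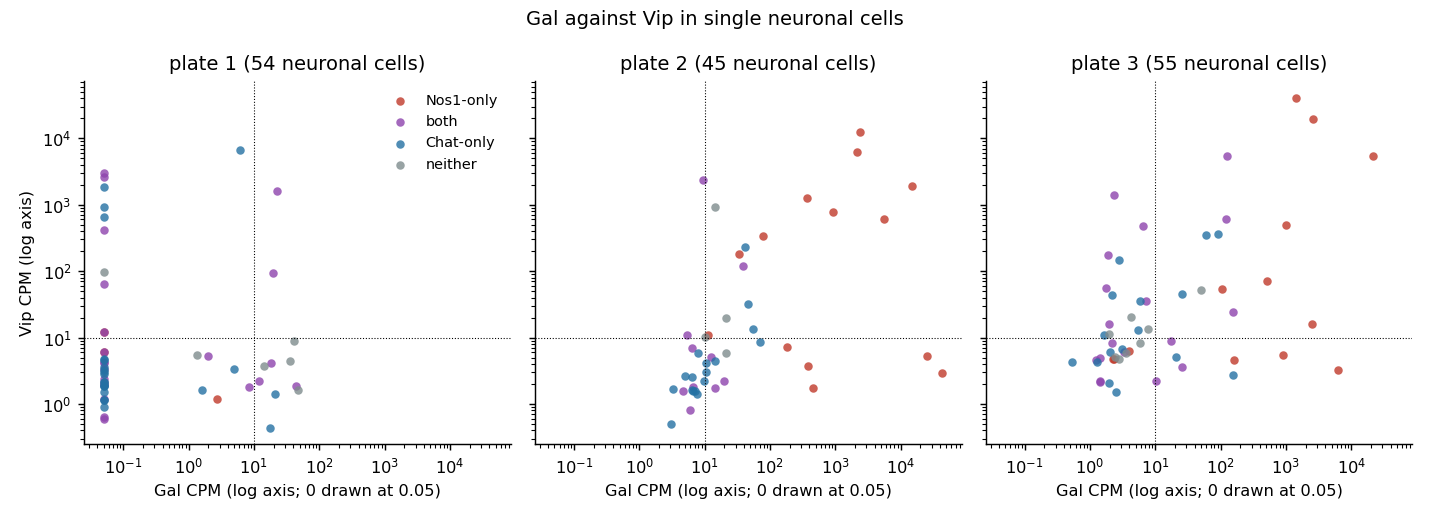
CPM of Gal (x) and Vip (y) in single neuronal cells of plates 1, 2 and 3 on log axes, with cells at 0 drawn at 0.05 and colours for the Chat and Nos1 class. Nos1-only cells of plates 2 and 3 reach high levels of both, up to 43580 CPM of Gal and 41105 CPM of Vip, while 9 of the 11 Vip-high cells of plate 1 have no high Gal.

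Slc17a6, the gene the reporter is named for, marks cells able to load glutamate into vesicles. Over all plates it was detected in 5 of 18 cells with both peptides (27.8%, 9.69 to 53.5%), 8 of 22 with Gal only (36.4%, 17.2 to 59.3%), 15 of 19 with Vip only (78.9%, 54.4 to 93.9%) and 61 of 95 with neither (64.2%, 53.7 to 73.8%). The interval of Gal only overlapped those of the other combinations. The plates differed in their share of Slc17a6 cells and in their mix of combinations, so the counts were also taken within plates. With both peptides they were 2 of 2, 0 of 7 and 3 of 9 on plates 1, 2 and 3, with Gal only 5 of 9, 0 of 4 and 3 of 9, with Vip only 8 of 9, 2 of 3 and 5 of 7, and with neither 29 of 34, 18 of 31 and 14 of 30. On plate 1 the cells with both peptides thus did not have the lower share that they had on plates 2 and 3. Turned round, Gal was high in 13 of 89 neuronal cells with Slc17a6 (14.6%, 8.01 to 23.7%) and in 27 of 65 without (41.5%, 29.4 to 54.4%). Vip was high in 20 of 89 with (22.5%) and 17 of 65 without (26.2%), and these intervals overlapped. Within plates the counts for Gal with and without Slc17a6 were 7 of 44 and 4 of 10 on plate 1, 0 of 20 and 11 of 25 on plate 2, and 6 of 25 and 12 of 30 on plate 3. The median depth was 6.87 M reads in cells with both peptides, 5.15 with Gal only, 4.47 with Vip only and 3.39 with neither, and its part was not tested.

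Sorted by class, Vip-high cells gave a Nos1-only set of 12 and a Chat-expressing set of 23, beside 2 cells with neither transcript. The sets differed in several other transcripts. Slc17a6 was high in 0 of 12 Nos1-only and 20 of 23 Chat-expressing cells (86.96%, 66.4 to 97.2%). Kcnab1 was high in 12 of 12 and 1 of 23. Adcyap1, which encodes the precursor of PACAP, a peptide related to VIP, was high in 1 of 12 and 16 of 23. Gal was high in 12 of 12 and 6 of 23. For Slc17a6, Kcnab1, Adcyap1 and Gal the exact intervals of the 2 sets, pooled over plates, did not overlap. These intervals cover counting error only and are no test between the sets. The Nos1-only set had 7 cells on plate 2 and 5 on plate 3. The Chat-expressing set had 10, 2 and 11 on plates 1, 2 and 3. In neuronal cells of these plates, Slc17a6 averaged 125.7, 42.4 and 33.6 CPM, and Kcnab1 11.7, 39.3 and 39.6 CPM. The part of the plates was not tested. The median depths of the Nos1-only and Chat-expressing sets were 7.13 and 5.16 M reads. A marker list of another cell type was carried by 1 of 12 and 12 of 23 cells, and its part was not tested. Cells without high Vip differed by class in the same directions. Of 83 neuronal cells with Chat and no high Vip, 63 had high Slc17a6, 19 Kcnab1, 62 Adcyap1 and 9 Gal. Of the 21 Gal-high Nos1-only cells, with or without high Vip, 0 had high Slc17a6, 21 Kcnab1 and 1 Adcyap1. These differences were thus not particular to Vip-high cells.

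**Figure D5:**
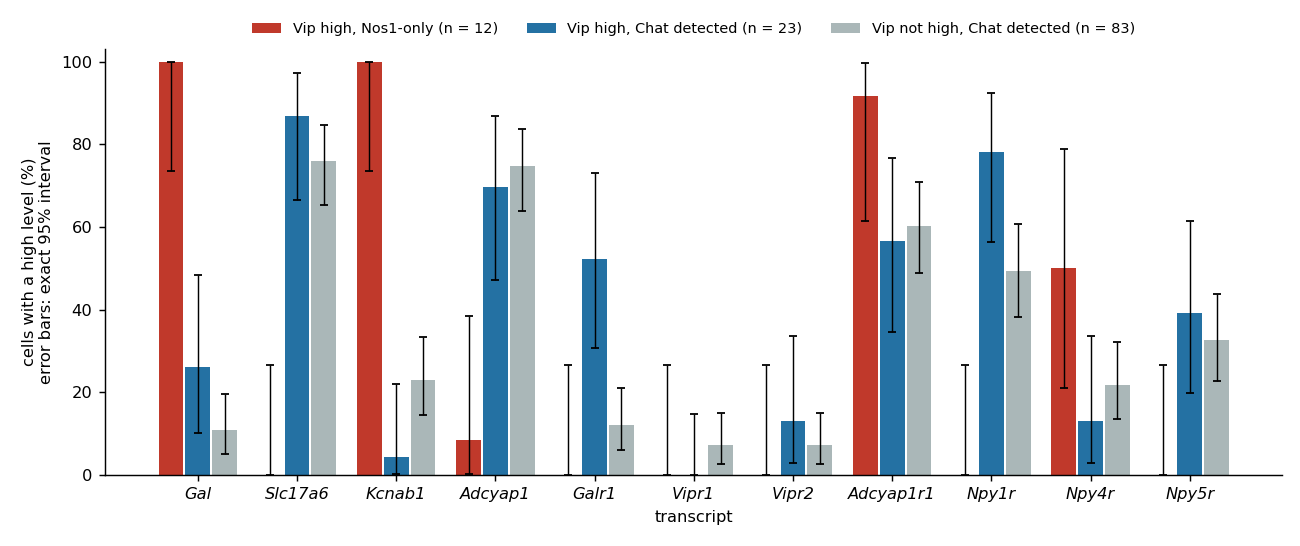
Share of cells (%) with a high level of 11 transcripts in Vip-high Nos1-only cells (red, n = 12), Vip-high cells with Chat (blue, n = 23) and cells with Chat and no high Vip (grey, n = 83), with exact 95% intervals as error bars. Gal and Kcnab1 are high in all 12 red cells, in which Slc17a6, Galr1, Npy1r and Npy5r are not high in any.

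The receptors through which these peptides act were measured for 10 of 11 listed genes, Galr3 having no row. The galanin receptor gene Galr1 was high in 24 neuronal cells and Galr2 in 4. Galr1 was high in 1 of 31 Nos1-only, 7 of 50 with both and 15 of 57 Chat-only cells. Its log2 ratio, Nos1-only over Chat-only, was -3.58 on plate 2 and -4.62 on plate 3. The Nos1-only sums were only 3 reads (95% interval 0.619 to 8.77) and 2 reads (0.242 to 7.22), against 636 (588 to 687) and 2996 (2890 to 3105) in Chat-only cells. No Gal-high Nos1-only cell had high Galr1 (0 of 21, room for 14.3%), so abundant Gal and high Galr1 were not seen in the same cell. Galr1 was the 1 called gene among 4 tested receptors, beside 1.5% of all tested genes called lower and 0.818% higher. The median log2 ratio of these 4, averaged over plates, was -0.77, beside -0.10 and -0.06 over all genes on plates 2 and 3.

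Galr1 lay often in Vip-high cells with Chat, but it was high in 0 of the 12 Vip-high Nos1-only cells (room for 25%). Among neuronal cells with Chat, it was high in 12 of 23 with high Vip (52.2%, 30.6 to 73.2%) and 10 of 83 without (12.0%, 5.93 to 21.0%), and these intervals did not overlap. The direction was the same on each plate, with 6 of 10 and 6 of 35 cells with and without high Vip on plate 1, with 1 of 2 and 2 of 25 on plate 2, and with 5 of 11 and 2 of 23 on plate 3. The median Galr1 level was 40.1 CPM in the Vip-high cells and 0 in the others. Depth differed too, with medians of 5.16 and 3.85 M reads, and its part was not tested.

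VIP acts on VPAC1 and VPAC2, encoded by Vipr1 and Vipr2, and these were rare in the picked cells. Vipr1 was high in 7 and Vipr2 in 10 neuronal cells, and 9 of the 10 cells with Vipr2 had both Chat and Nos1. Adcyap1r1, which encodes the PACAP receptor PAC1, was by contrast high in 89 neuronal cells, including 20 of 21 Gal-high Nos1-only cells with a median of 253 CPM. In Nos1-only over Chat-only cells its log2 ratio was 0.52 on plate 2 and 2.39 on plate 3, and it was not called.

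Of the NPY receptor genes, Npy1r, Npy4r and Npy5r were each high in more neuronal cells than Npy, which was high in 2. Npy1r was high in 64, Npy4r in 38, Npy5r in 36 and Npy2r in 4 neuronal cells, and Npy6r in 0, a count that at 3 cells leaves room for 1.95%. Npy1r was high in 2 of 31 Nos1-only cells, 39 of 50 with both and 20 of 57 with Chat only. Npy5r followed the same order, with 0 of 31, 26 of 50 and 10 of 57. Npy4r, whose receptor prefers pancreatic polypeptide, had its largest share in the Nos1-only class, with 15 of 31, 15 of 50 and 6 of 57. Of the 21 Gal-high Nos1-only cells, 14 had high Npy4r and none had high Npy1r or Npy5r. The log2 ratio of Npy1r was negative on both plates (-4.80 and -1.18) and that of Npy4r positive (0.63 and 5.33). Neither passed 2 on both plates, and the Npy1r value of plate 2 rests on 3 reads in Nos1-only cells, while Chat-only cells of plate 3 had 0 reads of Npy4r, so that its value there depends on the 1 CPM added.

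Npy was high in 5 cells. They were 2 neuronal cells (1.30%, 0.158 to 4.61%) and 3 of 50 other cells (6.0%, 1.25 to 16.5%). With each cell thinned to 400000 reads and sorted anew, the order turned, with 5 of 158 neuronal cells (3.16%) and 1 of 46 other cells (2.17%). Some cells changed neuronal status in that sorting, and its part in the turned order was not tested. The neuronal cells were cell 41 of plate 3, with 1351 CPM, and cell 70 of plate 3, with 41.9 CPM. The other cells were cells 37 and 11 of plate 1, with 2302 and 43.4 CPM, and cell 3 of plate 2, with 362 CPM. Every cell below these 5 held at most 4.18 CPM, and no cell had a low level, so the 5 stand clear of the rest. The log2 ratio of neuronal over other cells changed direction with the plate, at -7.30, -4.17 and 4.44, with 2, 1 and 2 high cells on plates 1, 2 and 3. In Nos1-only over Chat-only cells Npy was not among the genes tested: plate 2 had 0 reads in Nos1-only and 1 read in Chat-only cells, and plate 3 averaged 104.03 CPM in Nos1-only and 2.64 CPM in Chat-only cells. Both neuronal cells were on plate 3, so that plates 1 and 2 alone gave 0% of neuronal cells.

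The 5 cells were unlike each other. Cell 41 of plate 3 was the cell with the most Vip, had all 13 pan-neuronal genes and Nos1 at 36.2 CPM, and also held 1449 CPM of Gal. It was the 1 cell high in all 3 precursors. It held 2014 CPM of Dbh, which encodes the enzyme that makes noradrenaline from dopamine. Th, which encodes the enzyme that starts that path, and Slc6a2, which encodes the noradrenaline transporter, had no reads in it, nor did Hand1, a transcription factor gene of sympathetic neurons, and the same 3 genes had none in the other 4 cells. Cell 70 of plate 3 was Chat-only with 150 CPM of Chat, 35.0 CPM of Vip and all 13 pan-neuronal genes.

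The 3 Npy cells that were not neuronal carried marker lists of other types. Cell 37 of plate 1 carried the endothelial and smooth muscle lists, with 1487 CPM of Cdh5, an adhesion gene of vessel lining cells, and it was shallow, at 711434 reads. Cell 11 of plate 1 carried the endothelial, smooth muscle, glial and interstitial cell lists, with 954 CPM of Pecam1 and 1811 CPM of Acta2. Cell 3 of plate 2 carried the leukocyte list, with 3724 CPM of Cd68 and 441 CPM of Tyrobp, and had none of the 13 pan-neuronal genes. Gal and Vip lay below 10 CPM in these 3 cells.

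Peptide precursors need enzymes and granule proteins to become transmitters. Of 14 measured genes of processing and storage, all 14 were tested in Nos1-only over Chat-only cells and 0 were called, with a median log2 ratio of 0.09. With 0.818% of all tested genes called higher and 1.5% lower, a count of 0 among 14 is near the background and is no result about these genes. In neuronal over other cells 11 of 13 tested were higher, against 9.58% of all tested genes, with a median log2 ratio of 5.75, beside medians of 0.20, 0.22 and 0.47 over all genes on plates 1, 2 and 3. Cpe and Cpd, which encode carboxypeptidases that trim peptide ends, were not called. Scg2, which encodes the granule protein secretogranin 2, had medians of 1593 CPM in Gal-high Nos1-only cells and 333 CPM in the other neuronal Nos1-only cells. Pcsk1n (952 and 1486 CPM) and Vgf (261 and 311 CPM) of the same 14 genes went the other way. Median depths of the Gal-high and other cells were 6.89 and 2.05 M reads, and the part of depth was not tested. The amidating enzyme gene Pam, whose product finishes galanin, VIP and NPY, was high in 92.9% of neuronal cells and 38 of 50 other cells. The prohormone convertase gene Pcsk1 was high in 79.2% and 0 of 50.

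Related precursors were mostly absent. Of 8 genes related to the members, Ppy and Sct were high in no neuronal cell, Ghrh in 1, Gcg in 2, Galp in 7, Pyy in 8 and Spx in 16. Adcyap1 was the exception, high in 85 neuronal cells (55.2%) and 1 of 50 other cells. It was high in 5 of 31 Nos1-only, 44 of 50 with both and 34 of 57 Chat-only cells, an order unlike that of Gal. Its log2 ratio, Nos1-only over Chat-only, was -6.82 on plate 2 and -0.59 on plate 3, so it was not called.

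Among further markers of inhibitory motor neurons, 5 of 6 listed genes were measured, Gucy1a1 having no row. Nos1, which defines the classes, Ass1 and Kcnab1 were called higher in Nos1-only cells, beside 0.818% of all tested genes. Ass1 encodes argininosuccinate synthase, which rebuilds the arginine that nitric oxide synthase uses, and its log2 ratios were 3.04 and 3.30. Kcnab1 had 2.23 and 3.90. Cartpt, the CART precursor, had 2.99 and 1.98 and missed the threshold on plate 3, and the transcription factor gene Etv1 had 1.69 and 2.05. Ass1 had a median of 5323 CPM in the 21 Gal-high Nos1-only cells and 136 CPM in the 9 others.

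The genes most like Gal were sought by rank correlation across the neuronal cells of each plate, with levels that were not high set to 0, among 10631 genes. The 6 with the largest mean correlation over the 3 plates were Rnf144b (0.60), Plvap (0.60), F2rl2 (0.53), Gfra1 (0.51), Bves (0.50) and Asic2 (0.48). They encode a ubiquitin ligase, a protein of endothelial caveolae, the protease-activated receptor 3, a co-receptor for the growth factor GDNF, a Popeye-domain membrane protein and an acid-sensing channel subunit. Rnf144b was high in 30 of the 40 neuronal Gal-high cells and in 50 neuronal cells in all, and Plvap in 22 and 27. The endothelial list was carried by 1 of 40 neuronal Gal-high cells and 10 neuronal cells without high Gal (8.77%). Nos1 came 7th (0.47), while Chat came 10630th of 10631 (-0.39). Each of the 6 genes had a smaller correlation on plate 1 than on plates 2 and 3. For Rnf144b the correlations were 0.83 and 0.61 there and 0.35 on plate 1, and for Bves 0.95, 0.60 and -0.05. These cells share libraries and depth, so the values describe the cells and carry no test.

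For Vip the 6 genes were Dgkb (0.46), Slc44a5 (0.43), Tubb2a (0.43), Gabrg3 (0.43), Rarb (0.42) and Synm (0.42). They encode a diacylglycerol kinase, a choline transporter-like protein, a beta tubulin, a GABA-A receptor subunit, a retinoic acid receptor and an intermediate filament protein. None of the 6 was among those of Gal, and the mean correlation of Gal with Vip was 0.30. Dgkb was high in 24 of 37 Vip-high neuronal cells and 41 neuronal cells in all, with correlations of 0.67, 0.18 and 0.54 on plates 1, 2 and 3. Tubb2a was high in 37 of 37, but also in 140 neuronal cells in all. Npy had fewer than 5 high cells on every plate, so no likeness was computed for it.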

How the data were processed

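The deposited values were log2(RPKM + 1), with 1 column per cell, made by the authors; base and pseudocount were read from the values, and the mm10 build is given per the submitters' processing notes. For the aligner, counter, annotation and strand, the status is "not given in the sources used here". The planned unit was counts, so whole reads were recovered from the steps of the RPKM values: 100% of 2375655 values above 0 came out whole within a relative tolerance of 0.0001. Gene lengths came from annotation for 31368 genes and were inferred for 6267, among them Gal and Chat. Copies of single columns deposited as separate files were not used.

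CPM, detection, high levels, neuronal status and classes are defined in the report. A list of another type was carried where 50% of its genes were detected. Ratios were log2((mean CPM + 1)/(mean CPM + 1)), computed where a class held at least 5 cells, for genes with a mean of at least 10 CPM in either class on every plate used; a gene was called past 2 in 1 direction on all of them. Share intervals are Clopper-Pearson, read sums exact Poisson, and a share of 0 is bounded by 3 counts of its total. Genes named are the members, the listed genes and the 6 most alike by mean Spearman correlation. Members and lists were chosen with earlier results of these data known. Promoters are from RefSeq (32851 windows, all 3 members matched). The steps were tested on simulated data and run in Python 3.11.15 with numpy 2.4.6, pandas 2.3.3, scipy 1.17.1 and matplotlib 3.10.9.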

Additional observations from a re-analysis of the deposited data

How the results depend on the processing

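Of 290 recomputed values, 251 stayed within the interval or spread of the value reported, 37 moved and 2 reversed. With detection from 50 CPM, Gal was high in 17.5% of neuronal, 0% of other and 6.0% of Chat-and-Nos1 cells, Gal was detected in 20.1% and Vip in 25.3% of neuronal cells, and Gal without Vip was high in 7.14%. With detection from any read, Gal was detected in 76.6%, Vip in 100% and Npy in 16.9% of neuronal cells, and Npy was high in 5.19%. Gal was high in 0% of other cells at 30 times the expected reads, with a misassignment rate from the mean, with the rate of plate 2 on every plate, and without plate 3. With a high level at 1% of the plate's highest CPM, it was high in 17.5% of neuronal, 0% of other and 3.51% of Chat-only cells. Gal was detected in 51.0% of neuronal cells without plate 1 and in 30.3% without plate 2; without plate 3, Npy was high and detected in 0%. Among cells with no list of another type, Gal was high in 89.5% (Nos1-only) and 3.13% (Chat-only) and detected in 31.9% of neuronal cells, Vip was high in 57.9% of Nos1-only cells, and both were high in 18.1%; no such value was computed for other cells. The mean Vip log2 ratio of Nos1-only over Chat-only, 6.33, was 5.96 with 10 CPM added, 5.1996 without the highest cell, 7.40 without cells carrying another list, 5.89 and 5.11 with classes by 50 CPM and by high levels, and 6.2006 with totals less mitochondrial and the 10 highest genes. That of neuronal over other cells, 6.93, was 5.51 with 10 CPM added. The Npy ratio of Nos1-only over Chat-only, 2.41, was -0.86 without the highest cell and -0.67 with classes by 50 CPM. The cause was not tested. Thinned to 400000 reads per cell, Gal was high in 66.7% (Nos1-only) and 10.0% (Chat-only), and Npy in 3.16% of neuronal and 2.17% of other cells. No paired analysis was possible because the replicate numbers only name cells and pair none; plates were matched by taking each ratio within a plate, and no test was made over them. The level that could not be told from misassigned reads depended on the gene and the depth of the cell: levels not called high reached 179.6 CPM for Gal and 181.001 CPM for Vip on plate 2, and 50.8 and 70.9 CPM on plate 3.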
